A study of Mus musculus with 21 samples.

Results

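The genes described here are 10 that mark the blood and lymph vessels of the skin, most of them genes through which small veins catch white blood cells: Ackr1, Sele, Selp, Vcam1, Icam1, Pecam1, Cdh5, Vwf, Plvap and Lyve1. They were picked by symbol from a count table of 64050 gene symbols, and all 10 were among the 20462 genes with enough counts to be tested. They were followed through 21 libraries of whole mouse skin from a marrow transplant model of chronic graft-versus-host disease with scleroderma, in which donor immune cells cause the skin to thicken and scar.

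In the anti-IL1RAP group (mCAN10, 4 libraries) BALB/c recipients carried B10.D2 marrow and were given mCAN10, an antibody against the mouse IL-1 receptor accessory protein. The allogeneic isotype group (Allo, 4 libraries) also carried B10.D2 marrow and was given the isotype antibody mIgG2a LALA-PG, while the syngeneic isotype group (Syn, 4 libraries) carried BALB/c marrow and had the same isotype antibody. The nintedanib group (Nin, 5 libraries) and the allogeneic water group (Allo_H, 4 libraries) carried B10.D2 marrow and were given nintedanib, a kinase inhibitor of the PDGF, FGF and VEGF receptors, or ddH2O. All recipients were 8 weeks old, were irradiated with 700 cGy, received marrow 6 h later, were treated from day 21 and had their skin taken at week 7. Antibodies were injected into the abdomen on 2 days a week, at 20 mg/kg for the first dose and 10 mg/kg afterwards. The protocol states 50 mg/kg of nintedanib by mouth every day, but the design text states injection into the abdomen on 2 days a week, so the route, the schedule and the total dose received are uncertain here. Donor strain separates the Allo and the mCAN10 group from the Syn group. Its effect on these genes cannot be told apart from that of the disease, nor in mCAN10 skin from that of the antibody. The labels do not say that each library came from a separate mouse.

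White blood cells leave the blood mainly through the venules that follow the capillaries. Selectins on the venule wall slow the passing cells, chemokines presented on the wall activate their integrins, and the integrins then bind ICAM-1 and VCAM-1 so that the cell stops and crosses the junctions between endothelial cells. In skin the atypical receptor ACKR1 is a marker of venule endothelium, where it carries inflammatory chemokines across the cell without signalling in the usual way.

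Promoter sequences are given for the genes found in RefSeq's promoter table (GRCm38.p6), which held 4 of the 10: Ackr1, both selectin genes and Icam1. For Sele, Selp and Icam1 the 250 bases before the start are shown 5′ to 3′ on the gene's strand, with every match to a searched motif in capitals. Sele lies at chr1:164047984-164048233 (+), Selp at chr1:164115014-164115263 (+) and Icam1 at chr9:21015690-21015939 (+). For Ackr1 only 29 bases around its match are shown, at chr1:173333616-173333644 (−), since annotated exons of Ackr1 and of its neighbour Cadm3 run through that window.
Sele: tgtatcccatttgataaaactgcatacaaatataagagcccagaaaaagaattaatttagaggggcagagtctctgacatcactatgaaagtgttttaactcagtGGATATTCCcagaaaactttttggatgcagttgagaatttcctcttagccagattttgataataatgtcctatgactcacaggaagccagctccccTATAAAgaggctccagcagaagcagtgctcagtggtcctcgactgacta
Selp: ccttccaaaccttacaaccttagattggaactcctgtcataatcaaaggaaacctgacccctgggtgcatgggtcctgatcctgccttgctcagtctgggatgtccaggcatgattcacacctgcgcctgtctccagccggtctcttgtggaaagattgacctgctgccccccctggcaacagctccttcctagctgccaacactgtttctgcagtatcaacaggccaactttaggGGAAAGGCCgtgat
Icam1: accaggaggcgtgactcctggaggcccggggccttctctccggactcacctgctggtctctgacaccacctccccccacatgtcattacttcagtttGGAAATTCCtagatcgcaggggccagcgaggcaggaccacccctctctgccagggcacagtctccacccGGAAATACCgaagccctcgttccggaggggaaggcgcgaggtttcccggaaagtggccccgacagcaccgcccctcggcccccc
Ackr1: cttcaaaacaGGAAGCCCCaggatggtgc
The letters searched, on both strands, were GGNNNTTCC, a loose form of the site bound by NF-kB; the core of interferon response elements, GAAA and GAAA with 2 bases between them; and TATAAA, the TATA box. The NF-kB form was present in Sele (GGATATTCC), in Selp (GGAAAGGCC, reverse strand) and in Ackr1 (GGAAGCCCC, reverse strand), and at 2 places in Icam1 (GGAAATTCC, which reads as a match on both strands, and GGAAATACC, reverse strand). Of 32851 promoters in the table, 15.7% held it. Sele alone of the 4 held TATAAA (12.4% of all promoters), and none held the interferon response core (2.98%). These are matches of letters, not measured binding.

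Values are CPM, read counts scaled to the size of the library with TMM factors. Total counts per library ranged from 17130264 to 32899212, and the genes' own counts from 29 for Sele to 5068 for Plvap in a single library. The 12 mCAN10, Allo and Syn libraries and the 9 Nin and Allo_H libraries were counted in separate runs under partly different gene names, so groups are compared within a run only. The skin samples held endothelium in every library: none of 27 further endothelial genes, from Kdr to Ramp2, was at 0 in any library. Their summed level ranged from 734 to 892 CPM in mCAN10, 495 to 716 in Allo, 668 to 1008 in Syn, 267 to 1003 in Nin and 551 to 738 in Allo_H skin. Of 8 further venule genes 5 could be tested. Y-linked genes summed to 2.73 to 6.61 CPM in every Syn library, to 0 in every Allo and Allo_H library, and to at most 15.2 CPM in mCAN10 and 27.9 CPM in Nin libraries, and the labels do not give the sex of the animals. An effect of sex cannot be told apart from the difference between Allo and Syn skin. Y-linked genes also summed to 0 in mCAN10 replicates 1, 3 and 4, so such an effect cannot be cleanly separated from the difference between mCAN10 and Syn skin. The same limit holds for mCAN10 against Allo skin, where mCAN10 replicate 2 had 15.2 CPM. It also holds for Nin against Allo_H skin, where Nin replicates 2 and 4 had 11.7 and 27.9 CPM. Nintedanib replicates 1 and 3 stood apart, with 64410 and 22440 CPM over 15 hair genes against 6.95 to 16.2 CPM in the other 3 nintedanib libraries, and nintedanib replicate 1 was the lowest library of its group for 9 of the 10 genes. Allo replicate 1 held little skeletal muscle, with 27.4 CPM over 14 muscle genes against 4859 to 67010 CPM in all other libraries.

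**Figure D1:**
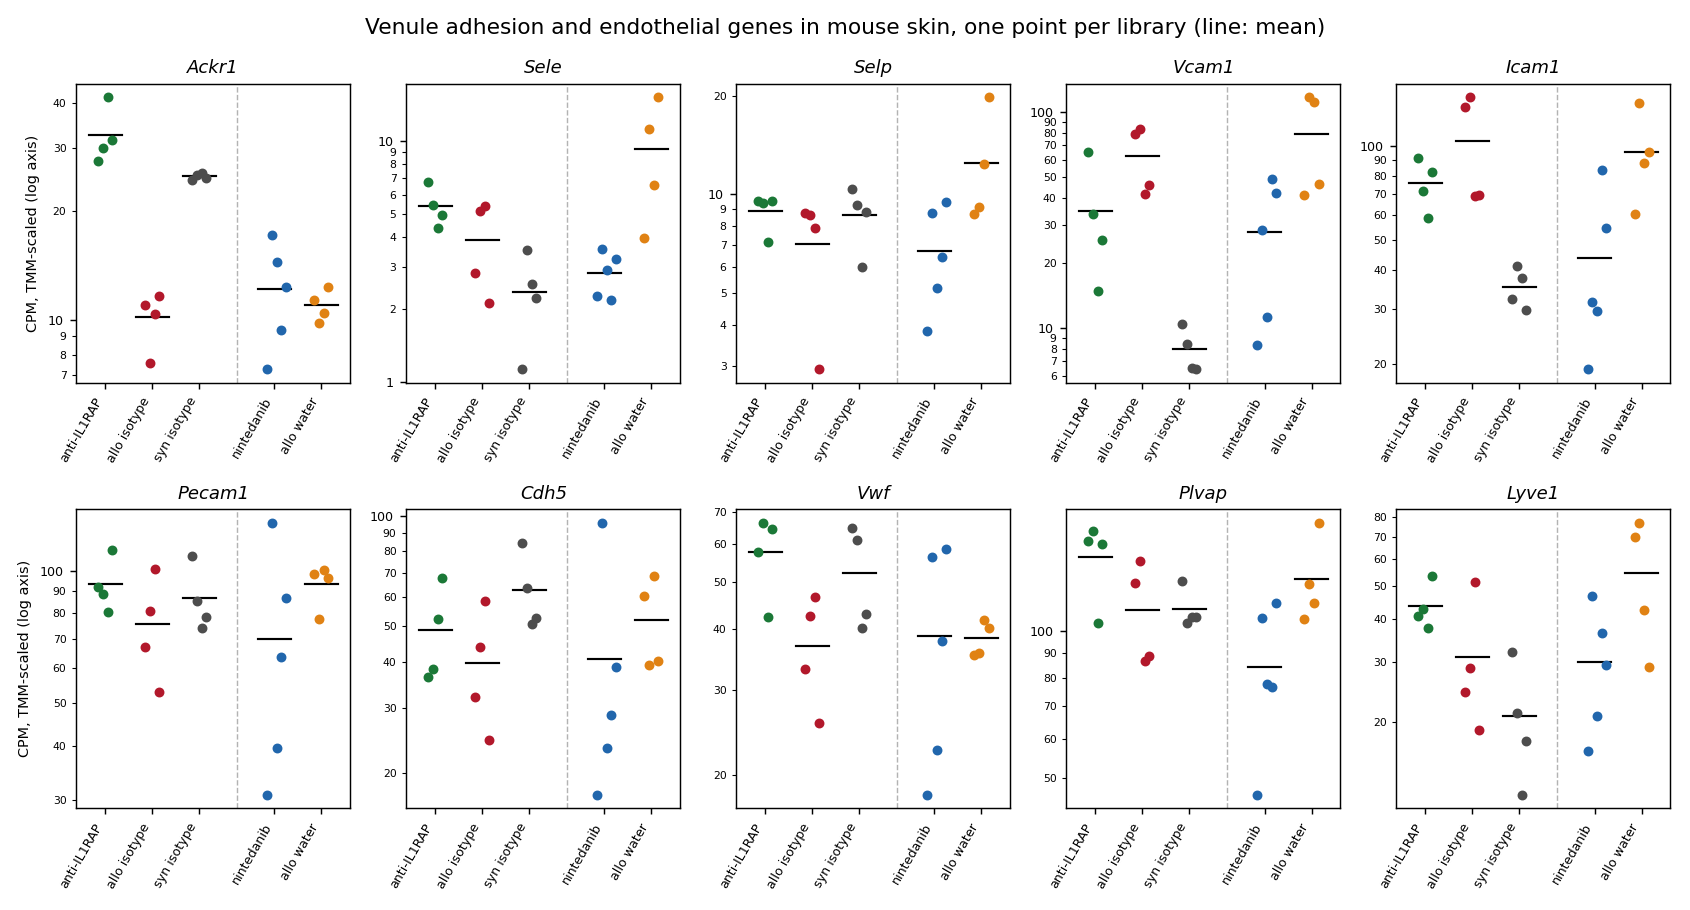
CPM of the 10 genes in each library on log axes whose range differs between panels, with 1 point per library and a line at the group mean. Groups left of the dashed line belong to the first counting run and those right of it to the second. The 4 allogeneic isotype libraries lie between 7.59 and 11.6 CPM for Ackr1, below all 4 anti-IL1RAP libraries (27.6 to 41.4) and all 4 syngeneic libraries (24.4 to 25.6).

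In allogeneic skin with disease, the chemokine-carrying receptor Ackr1 fell and the integrin ligands Vcam1 and Icam1 rose, while both selectins and the general endothelial genes did not pass the test. With edgeR's quasi-likelihood test, 3 of the 10 genes were called between the Allo and Syn groups (2 higher and 1 lower) at a Benjamini-Hochberg adjusted p under 0.05, where 22.6% of all genes tested were called (13.8% higher and 8.80% lower). The same 3 genes were the ones whose CPM did not overlap between the groups, against 29.2% of all genes. The median log2 fold change of the 10 genes was -0.10, and that of all genes was 0. In whole skin, fewer cells of a type and less RNA per cell cannot be told apart.

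Ackr1 had 11.01, 7.59, 10.3 and 11.6 CPM in Allo skin, against 24.4, 25.2, 25.6 and 24.7 CPM in Syn skin. The 2 groups did not overlap, and the Syn libraries were nearly identical to each other, with a coefficient of variation of 2.06%. The log2 fold change was -1.30 ± 0.21 (adjusted p = 0.000352), a level 2.46-fold lower in Allo skin. Of 9 chemokines known to bind ACKR1 in mouse or human, 7 could be tested and 5 rose in Allo skin, among them the monocyte attractants Ccl7 (log2 fold change 3.35 ± 0.47, adjusted p = 0.000115) and Ccl2 (3.57 ± 0.68, adjusted p = 0.00128) and the T cell attractant Ccl17 (5.38 ± 1.03, adjusted p = 0.00124). Their summed level was 186 to 308 CPM in Allo and 43.9 to 77.1 CPM in Syn skin.

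Ackr1 has a neighbour that bears on its count. In an older annotation (GENCODE vM21), a last exon of Cadm3, an adhesion molecule gene known from nerve, runs over 361 of the 1405 exonic bases of Ackr1 (25.7%) on the same strand, and the other 1044 bases are not shared. Cadm3 ranged from 11.3 to 33.7 CPM in Allo and from 87.8 to 115 CPM in Syn skin (log2 fold change -2.19 ± 0.34, adjusted p = 0.000252). How the authors' counting treated reads in the shared bases is not known here, and the part of Cadm3 in the Ackr1 difference was not tested. Genes of dermal fibroblasts moved the same way, with 6 of 11 lower in Allo skin and a summed level of 994 to 5126 CPM in Allo and 5643 to 7402 CPM in Syn skin. Red blood cell genes, whose precursors can also express ACKR1, were called in 0 of 6 (67.8 to 453 CPM in Allo and 71.4 to 197 CPM in Syn skin).

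Set against the 27 endothelial genes, as log2 CPM minus their mean log2 CPM in the same library, Ackr1 ranged from -1.28 to -0.16 in Allo and from -0.20 to 0.55 in Syn skin. On this scale the 2 groups overlapped by a narrow margin. The share of all genes without overlap on this scale was not computed, for this or any later comparison. With the mean of those 27 genes as a covariate the fold change was -1.18 ± 0.20 (edgeR adjusted p = 0.000732).

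Sele encodes E-selectin, which inflamed endothelium makes anew, and Selp encodes P-selectin, which endothelium and platelets store in granules. Sele had 2.84, 5.15, 5.37 and 2.13 CPM in Allo skin, against 1.13, 3.52, 2.55 and 2.22 CPM in Syn skin. The ranges overlapped, and the log2 fold change of 0.72 ± 0.39 did not pass the test (adjusted p = 0.201). Selp had 8.81, 8.63, 7.88 and 2.94 CPM in Allo skin, against 10.4, 9.31, 6.0 and 8.83 CPM in Syn skin. Its fold change was -0.29 ± 0.33 (adjusted p = 0.591), and 1 Allo library lay far below the other 3. Predicted genes on the opposite strand overlap Selp exons, Gm16548 over 438 and Gm16587 over 186 of 4413 bases. Gm16548 had 1.19 to 4.5 CPM in Allo and 2.91 to 4.48 CPM in Syn skin. Neither gene was called, and their part in the Selp values was not tested. Of 10 platelet genes 5 could be tested and none was called, with a summed level of 102 to 157 CPM in Allo and 92.6 to 164 CPM in Syn skin.

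Vcam1, the ligand of integrin alpha 4, had 79.3, 83.7, 41.5 and 45.9 CPM in Allo skin, against 10.5, 8.45, 6.54 and 6.44 CPM in Syn skin. Every Allo library was above every Syn library, and the log2 fold change was 2.97 ± 0.56 (adjusted p = 0.00115). Icam1, the ligand of the leukocyte integrins LFA-1 and Mac-1, had 133, 143, 69.0 and 69.5 CPM in Allo skin, against 32.2, 41.0, 37.7 and 29.7 CPM in Syn skin. These groups did not overlap either, and the log2 fold change was 1.56 ± 0.37 (adjusted p = 0.00573). In both genes the same 2 Allo libraries, replicates 1 and 2, were the highest. Relative to the 27 endothelial genes both stayed apart: Vcam1 ranged from 1.09 to 2.44 in Allo and from -1.51 to -1.23 in Syn skin, and Icam1 from 1.82 to 3.19 in Allo and from 0.20 to 1.11 in Syn skin, all in log2 units. Predicted genes on the opposite strand overlap exons of both, Gm43109 over 61 bases of Vcam1 and Gm47079 over 511 bases of Icam1, and the library kit did not mark strand. Both were also called higher in Allo skin, Gm43109 at 2.85 ± 0.61 (adjusted p = 0.00601) and Gm47079 at 1.29 ± 0.30 (adjusted p = 0.00879), and their part in the Vcam1 and Icam1 differences was not tested.

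Both proteins are also made by cells other than endothelium, such as macrophages, fibroblasts and activated keratinocytes, and the genes of those cells moved too. Those of fibroblasts went the other way from Vcam1 and Icam1, with 6 of 11 lower in Allo skin and 0 higher. Of 13 pan-leukocyte and T cell genes 12 rose, with a summed level of 242 to 569 CPM in Allo and 76.4 to 159 CPM in Syn skin. Among 18 macrophage genes 7 rose and 3 fell, with 1720 to 4845 CPM in Allo and 816 to 1631 CPM in Syn skin. Of 10 keratinocyte genes 5 rose, with 44370 to 68580 CPM in Allo and 14120 to 24690 CPM in Syn skin. The part of these cells in the Vcam1 and Icam1 differences was not tested. The leukocyte partners of the adhesion molecules rose in 8 of 17 and fell in none, among them the LFA-1 subunit Itgal (2.96 ± 0.62, adjusted p = 0.00256) and the hyaluronan and selectin ligand Cd44 (1.24 ± 0.28, adjusted p = 0.00372).

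The 4 general endothelial genes were not called between Allo and Syn skin. Pecam1, the junction protein CD31, averaged 75.5 ± 20.6 CPM in Allo and 86.5 ± 15.2 CPM in Syn skin (SD, n = 4 each), with a log2 fold change of -0.20 ± 0.31. Cdh5, the VE-cadherin of endothelial junctions, averaged 39.8 ± 14.8 CPM in Allo and 62.9 ± 15.3 CPM in Syn skin, with a fold change of -0.66 ± 0.41 (adjusted p = 0.274). Vwf, the clotting factor kept in endothelial and platelet granules, averaged 37.0 ± 9.48 CPM in Allo and 52.4 ± 12.5 CPM in Syn skin (-0.50 ± 0.30). Plvap, which forms the diaphragms of fenestrated and venule endothelium, was nearly equal, at 110.0 ± 26.3 CPM in Allo and 110.8 ± 10.3 CPM in Syn skin (-0.01 ± 0.23). For these 4 genes the ranges overlapped, and the 95% intervals of the log2 fold change, from -1.47 to 0.15 for Cdh5 and from -0.47 to 0.45 for Plvap, still held changes of moderate size. Of 16 other junction genes 1 rose, the plakoglobin gene Jup (0.83 ± 0.22), which epithelia also express, and 3 fell, among them Marveld2 (-0.95 ± 0.23) and the endothelial junction gene Jam2 (-1.40 ± 0.40).

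Around them, few genes of the endothelial, the arterial and capillary, and the venule lists were called, while more of the activation list were. Of the 27 endothelial genes 2 fell in Allo skin, the angiopoietin receptor Tek (-1.42 ± 0.40, adjusted p = 0.0161) and the VEGF receptor Kdr (-1.22 ± 0.43, adjusted p = 0.0480), and none rose; their median was -0.30. Among 16 arterial and capillary genes 3 fell, namely the apelin receptor Aplnr (-3.10 ± 0.79), the Notch target Hey1 (-1.35 ± 0.40) and the ephrin Efnb2 (-0.70 ± 0.22), with adjusted p up to 0.0259. Of the 5 tested venule genes 1 rose, Bst1 (2.76 ± 0.59, adjusted p = 0.00291), which myeloid cells also express. Of 23 genes of endothelial activation 12 rose and 1 fell, the already named Tek, where 22.6% of all genes tested were called. Among the 12 were the NF-kB feedback gene Tnfaip3 (1.44 ± 0.27), the TNF receptor Tnfrsf1a (0.69 ± 0.13) and the interferon-induced tether Bst2 (2.13 ± 0.40). The part of leukocytes and keratinocytes, whose genes also rose, in these 12 was not tested.

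Lyve1 encodes the hyaluronan receptor of lymphatic endothelium, which some resident macrophages also carry. It had 24.4, 28.8, 51.6 and 18.9 CPM in Allo skin, against 32.0, 21.2, 12.2 and 17.5 CPM in Syn skin. The ranges overlapped, and the log2 fold change of 0.58 ± 0.37 was not called (adjusted p = 0.288). Relative to the 27 endothelial genes the groups separated, at 0.54 to 1.40 in Allo and -0.51 to 0.19 in Syn skin. With the mean of those 27 genes as a covariate Lyve1 passed the edgeR test (0.92 ± 0.30, adjusted p = 0.0369), in a fit that called 4507 genes in all. Of 11 tested lymphatic genes none was called, and their median was 0.66. The list's summed level overlapped, at 354 to 433 CPM in Allo and 261 to 445 CPM in Syn skin. The lymphatic master regulator Prox1 averaged 2.98 ± 0.725 CPM in Allo and 1.32 ± 0.377 CPM in Syn skin (edgeR adjusted p = 0.145). Tbx1 (-0.82 ± 0.43), Fxyd6 (-0.80 ± 0.48) and Clca3a1 (-0.33 ± 0.27) had negative log2 fold changes, and the other tested genes of the list had positive ones.

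**Figure D2:**
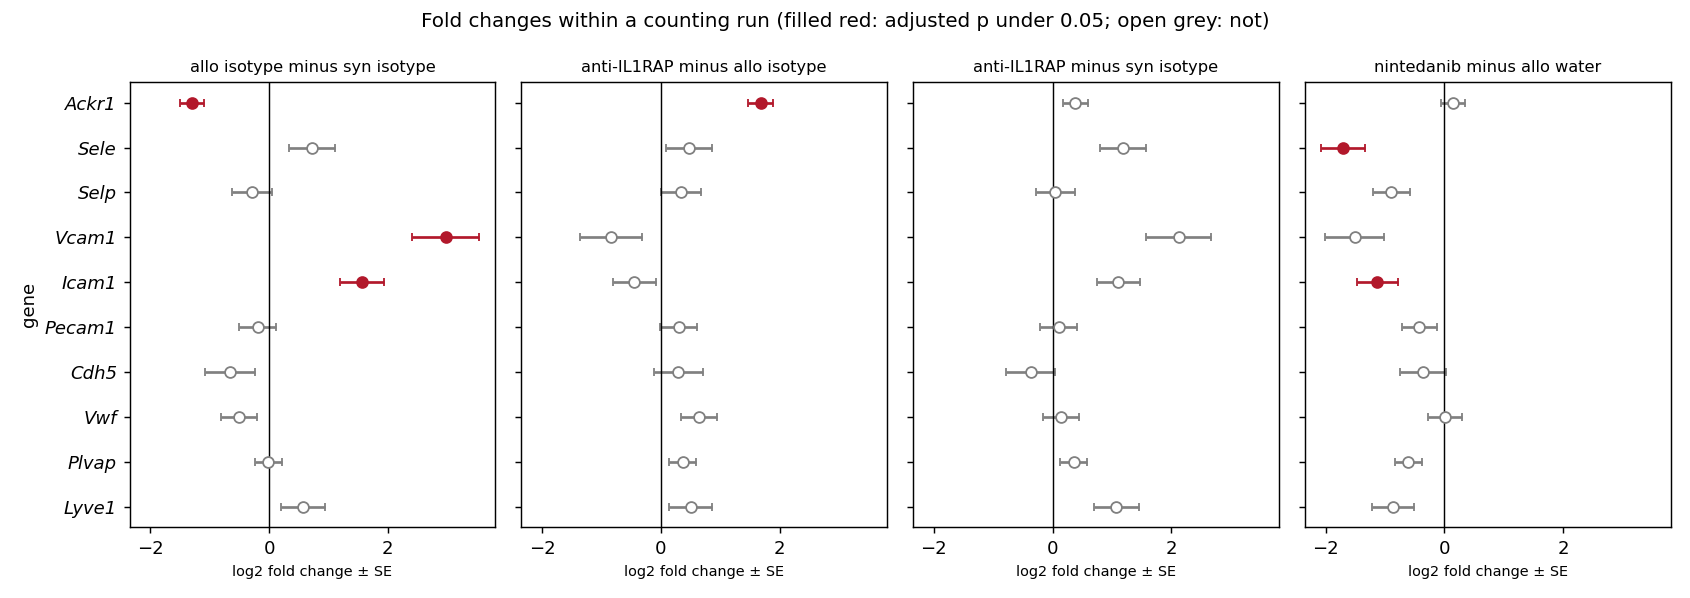
Log2 fold change ± SE of each gene in the 4 comparisons, from edgeR's fit over all 21 libraries, with filled red points for adjusted p under 0.05 and open grey points otherwise. Ackr1 is at -1.30 in allogeneic isotype against syngeneic skin and at 1.68 in anti-IL1RAP against allogeneic isotype skin, and the called changes under nintedanib are those of Sele and Icam1.

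The comparison of mCAN10 with Allo skin asks how blocking the co-receptor that IL-1, IL-36 and IL-33 have in common changed diseased skin. Ackr1 rose and was the single gene of the 10 that was called, against 10.8% of all genes tested (5.58% higher and 5.19% lower). It was also the single gene without overlap between the groups (23.1% of all genes). The median log2 fold change of the 10 genes was 0.35, and that of all genes was 0.

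Ackr1 had 27.6, 29.9, 41.4 and 31.6 CPM in mCAN10 skin, against 11.01, 7.59, 10.3 and 11.6 CPM in Allo skin. Every mCAN10 library was far above every Allo library, and the log2 fold change was 1.68 ± 0.21 (adjusted p = 0.000199), a level 3.21-fold higher. Relative to the 27 endothelial genes the groups were also apart, at 0.35 to 0.89 in mCAN10 and -1.28 to -0.16 in Allo skin. The neighbour Cadm3 rose as well, with 74.0 to 143 CPM in mCAN10 and 11.3 to 33.7 CPM in Allo skin (2.22 ± 0.34, adjusted p = 0.000706), and 6 of 11 fibroblast genes rose, with a summed level of 4400 to 11070 CPM in mCAN10 and 994 to 5126 CPM in Allo skin. Their part in the Ackr1 difference was not tested. None of the 7 chemokine genes was called, and their summed level was 85.1 to 181 CPM in mCAN10 and 186 to 308 CPM in Allo skin.

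**Figure D3:**
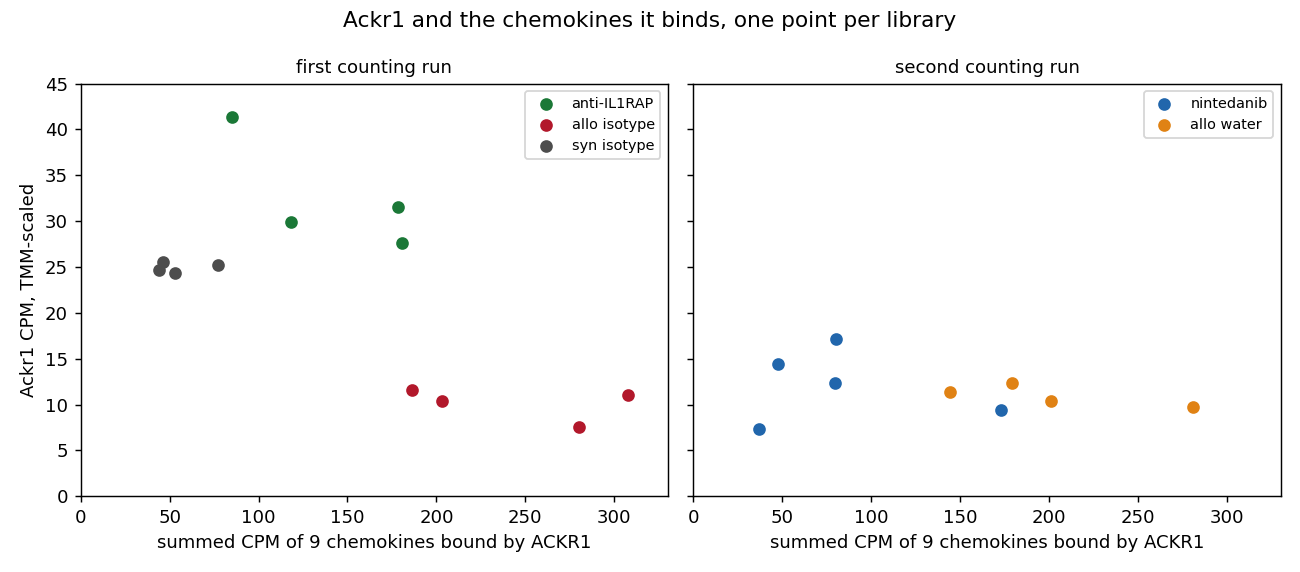
Ackr1 CPM against the summed CPM of 9 chemokine genes whose products ACKR1 binds, with 1 point per library and a panel per counting run. In the first run the anti-IL1RAP libraries lie at 85.1 to 181 CPM of chemokines and at least 27.6 CPM of Ackr1, the allogeneic isotype libraries at 186 to 308 and at most 11.6, and the syngeneic libraries at 43.9 to 77.1 and at most 25.6; in the second run all libraries lie at most at 17.2 CPM of Ackr1.

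The integrin ligands were lower on average in mCAN10 than in Allo skin but did not pass the test. Vcam1 had 65.1, 33.8, 14.9 and 25.5 CPM in mCAN10 skin, against 79.3, 83.7, 41.5 and 45.9 CPM in Allo skin (log2 fold change -0.85 ± 0.52, adjusted p = 0.347). Icam1 had 91.6, 71.6, 58.7 and 82.2 CPM in mCAN10 skin, against 133, 143, 69.0 and 69.5 CPM in Allo skin (-0.45 ± 0.36, adjusted p = 0.504). In both genes mCAN10 replicate 1 was the highest of its group and lay within the Allo range. The 95% intervals reached from -1.87 to 0.18 for Vcam1 and from -1.16 to 0.27 for Icam1.

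The remaining 7 genes had higher averages in mCAN10 skin, without a call. Sele had 6.79, 5.44, 4.35 and 4.95 CPM in mCAN10 skin, against 2.84, 5.15, 5.37 and 2.13 CPM in Allo skin (log2 fold change 0.47 ± 0.39). The mCAN10 libraries had a narrower range that overlapped the Allo range. Selp had 9.57, 9.43, 7.17 and 9.57 CPM in mCAN10 skin, against 8.81, 8.63, 7.88 and 2.94 CPM in Allo skin (0.34 ± 0.33). Vwf averaged 57.8 ± 10.8 CPM in mCAN10 and 37.0 ± 9.48 CPM in Allo skin (0.64 ± 0.30, adjusted p = 0.197), the closest of the 7 to the threshold. Plvap averaged 141.8 ± 25.8 CPM in mCAN10 and 110.0 ± 26.3 CPM in Allo skin (0.37 ± 0.23), and Lyve1 43.8 ± 6.88 CPM in mCAN10 and 30.9 ± 14.3 CPM in Allo skin (0.50 ± 0.37). Pecam1 (0.30 ± 0.32) and Cdh5 (0.29 ± 0.41) overlapped widely between the groups. Of the 27 endothelial genes none was called (median 0.42), and of 16 arterial and capillary genes 3 rose, Efnb2 (0.81 ± 0.22), Aplnr (2.74 ± 0.78) and Hey1 (1.25 ± 0.40), with adjusted p up to 0.0489. These are the 3 genes that were lower in Allo than in Syn skin, and both comparisons use the same Allo libraries.

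The comparison of mCAN10 with Syn skin shows what differed under treatment, with donor strain also different between these groups. With edgeR none of the 10 genes was called, where 0.811% of all genes tested were; 4 of the 10 and 13.7% of all genes had an unadjusted p under 0.05, and DESeq2 called 1, Vcam1 (adjusted p = 0.00487), and 3.30% of all genes. In 5 genes, Ackr1, Sele, Vcam1, Icam1 and Lyve1, every mCAN10 library was above every Syn library, against 18.8% of all genes whose groups did not overlap in either direction. With only the 8 libraries compared in the fit, edgeR called 4 of them: Sele (adjusted p = 0.0486), Vcam1 (adjusted p = 0.0214), Icam1 (adjusted p = 0.00854) and Lyve1 (adjusted p = 0.0398). In that fit 11.2% of all genes tested were called.

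Vcam1 averaged 34.8 ± 21.6 CPM in mCAN10 and 7.97 ± 1.90 CPM in Syn skin, a log2 fold change of 2.13 ± 0.54 (adjusted p = 0.0819). Icam1 averaged 76.0 ± 14.1 CPM in mCAN10 and 35.2 ± 5.14 CPM in Syn skin (1.11 ± 0.37, adjusted p = 0.179). Sele averaged 5.38 ± 1.04 CPM in mCAN10 and 2.36 ± 0.984 CPM in Syn skin (1.19 ± 0.39, adjusted p = 0.177). Lyve1 averaged 43.8 ± 6.88 CPM in mCAN10 and 20.8 ± 8.38 CPM in Syn skin (1.08 ± 0.37, adjusted p = 0.205). Ackr1 averaged 32.6 ± 6.07 CPM in mCAN10 and 25.0 ± 0.515 CPM in Syn skin (0.39 ± 0.20, adjusted p = 0.429). All means are with SD over 4 libraries each.

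Of the 7 tested chemokine genes 2 rose in mCAN10 against Syn skin, Ccl7 (2.68 ± 0.45, adjusted p = 0.00832) and Ccl17 (4.27 ± 0.99, adjusted p = 0.0480). Their list's summed level was 85.1 to 181 CPM in mCAN10 and 43.9 to 77.1 CPM in Syn skin, so both this sum and Ackr1 were higher in every mCAN10 library than in every Syn library. Of 13 pan-leukocyte and T cell genes 1 rose, the T cell co-receptor gene Cd4 (2.92 ± 0.57, adjusted p = 0.0204). None of the endothelial, venule, arterial, lymphatic, junction and activation genes on the lists was called here by edgeR over all 21 libraries.

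The order of the 5 genes' mean levels over the first run was as follows. Ackr1 had its lowest mean in Allo skin, and the mCAN10 and Syn means were within 1.31-fold. Vcam1 and Icam1 had their highest mean in Allo skin, an intermediate one in mCAN10 skin that was not called against Allo, and the lowest in Syn skin. Sele and Lyve1 had their highest mean in mCAN10 skin, followed by Allo and then Syn skin, with no neighbouring pair called. Relative to the 27 endothelial genes, Sele, Vcam1, Icam1 and Lyve1 were above Syn skin in every mCAN10 library, and Cdh5 was below it in every one (0.85 to 1.46 in mCAN10 and 1.51 to 1.67 in Syn skin). How many of all genes separate on this scale is not known here. Of the other genes, Selp (0.05 ± 0.33), Pecam1 (0.11 ± 0.31), Vwf (0.14 ± 0.30), Plvap (0.36 ± 0.23) and Cdh5 (-0.37 ± 0.41) had small log2 fold changes between mCAN10 and Syn skin, each with overlapping CPM ranges.

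**Figure D4:**
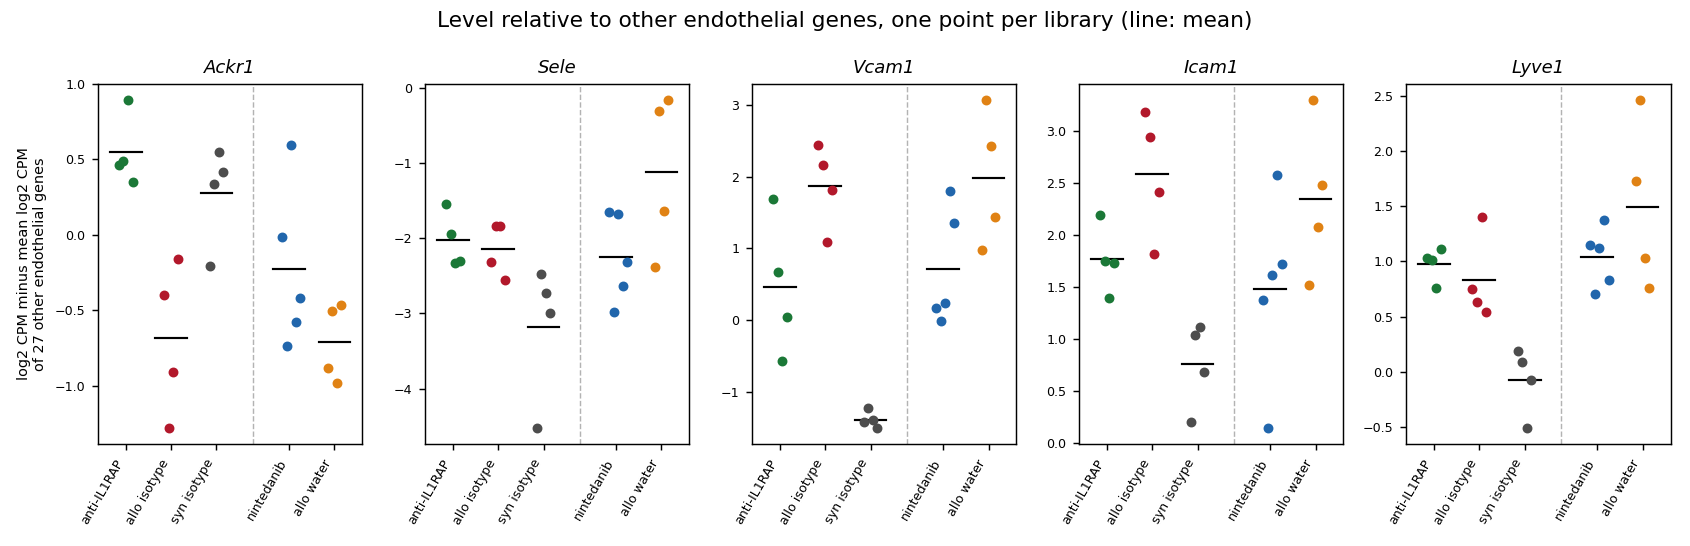
Log2 CPM of 5 genes minus the mean log2 CPM of 27 other endothelial genes in the same library, with 1 point per library, a line at the group mean, and a dashed line between the counting runs. Ackr1 lies at 0.35 to 0.89 in anti-IL1RAP and at -1.28 to -0.16 in allogeneic isotype skin, and Lyve1 lies at 0.54 or above in all anti-IL1RAP and allogeneic isotype libraries and at 0.19 or below in syngeneic ones.

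Under nintedanib the selectin Sele and the integrin ligand Icam1 fell relative to Allo_H skin, and Ackr1 was not called. Of the 10 genes 2 were called, both lower, against 9.31% of all genes tested (5.56% higher and 3.76% lower), and 1, Sele, had groups that did not overlap (7.94% of all genes). The median log2 fold change of the 10 genes was -0.73, and that of all genes was 0. The 20462 genes tested include genes without counts in this run, such as Gm43109 and Gm47079, which could not be called here. The shares and the median of all genes include them, and 16230 genes were tested with this run alone. With only the 9 libraries of this run in the fit, the fold changes were nearly the same, at -1.70 ± 0.38 for Sele and -1.12 ± 0.41 for Icam1, but neither passed (adjusted p = 0.0730 for Sele and 0.189 for Icam1), and 0.579% of all genes were called.

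Sele had 2.28, 3.55, 2.91, 2.19 and 3.23 CPM in Nin skin, against 3.97, 11.2, 6.57 and 15.2 CPM in Allo_H skin. The Nin libraries were close together and the Allo_H libraries widely spread, with no overlap. The log2 fold change was -1.70 ± 0.37 (adjusted p = 0.00923), a level 3.26-fold lower. Relative to the 27 endothelial genes the groups overlapped (-2.98 to -1.65 in Nin and -2.38 to -0.16 in Allo_H skin). A note on sequencing lanes that the labels give for 5 of the 9 libraries divides this comparison: the fold change was -1.23 ± 0.53 among libraries with the note and -2.28 ± 0.57 among those without it, neither of them called.

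Icam1 had 19.2, 31.6, 29.4, 83.8 and 54.3 CPM in Nin skin, against 60.3, 137, 87.8 and 95.6 CPM in Allo_H skin. Nin replicate 4 lay within the Allo_H range and the other 4 below it, and the log2 fold change was -1.12 ± 0.34 (adjusted p = 0.0471). Without the 2 hair-rich Nin libraries it was -0.79 ± 0.34 (adjusted p = 0.181), and it lost its call when any of Allo_H replicates 2, 3 and 4 or Nin replicates 1, 2 and 3 was left out. Keratinocyte genes were lower in 4 of 10, at a summed 9314 to 41230 CPM in Nin and 39580 to 83530 CPM in Allo_H skin, and the macrophage genes had 655 to 3210 CPM in Nin and 2102 to 4235 CPM in Allo_H skin; with the macrophage mean as a covariate the Icam1 fold change was -0.71 ± 0.27 (adjusted p = 0.128).

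Vcam1 had 8.30, 28.4, 11.2, 49.1 and 42.2 CPM in Nin skin, against 41.3, 117, 112 and 46.6 CPM in Allo_H skin. Its log2 fold change of -1.51 ± 0.49 just missed the threshold (adjusted p = 0.0599), with the 2 hair-rich Nin libraries the lowest. Selp had 3.84, 8.80, 5.17, 6.45 and 9.47 CPM in Nin skin, against 8.73, 9.18, 12.3 and 19.8 CPM in Allo_H skin (-0.89 ± 0.32, adjusted p = 0.0809). Plvap averaged 84.1 ± 26.9 CPM in Nin (n = 5) and 127.6 ± 26.9 CPM in Allo_H skin (n = 4), at -0.60 ± 0.22 (edgeR adjusted p = 0.0891). DESeq2 called these 3 genes as well as Sele and Icam1, and 15.3% of all genes tested. Of the 5 tested platelet genes 1 rose, the glycoprotein gene Gp5 (3.50 ± 0.93, edgeR adjusted p = 0.0250). Gp5 was low and widely spread, at 1.84 ± 2.42 CPM in Nin and 0.158 ± 0.0745 CPM in Allo_H skin (SD). The platelet list had a summed level of 32.0 to 75.6 CPM in Nin and 40.1 to 57.3 CPM in Allo_H skin.

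Ackr1 had 7.29, 17.2, 14.5, 9.38 and 12.3 CPM in Nin skin, against 11.4, 9.76, 10.4 and 12.3 CPM in Allo_H skin. The groups overlapped, and the log2 fold change was 0.15 ± 0.20 (adjusted p = 0.753), with an interval from -0.24 to 0.53. Cadm3 ranged from 20.4 to 50.1 CPM in Nin and from 15.0 to 23.1 CPM in Allo_H skin and was not called (0.85 ± 0.31, adjusted p = 0.0921). Of 11 fibroblast genes 2 rose, the surface proteases Fap (1.09 ± 0.28, adjusted p = 0.0232) and Dpp4 (0.82 ± 0.23, adjusted p = 0.0345), with a summed level of 3981 to 10740 CPM in Nin and 2026 to 4486 CPM in Allo_H skin. Of 6 red blood cell genes 2 rose, the anion exchanger gene Slc4a1 (4.02 ± 1.12, adjusted p = 0.0316) and the haem synthesis gene Alas2 (2.62 ± 0.80, adjusted p = 0.0458). Their list summed to 2285 CPM in Nin replicate 4, 488 in Nin replicate 2 and 53.5 to 68.8 in the other Nin libraries, against 46.6 to 237 CPM in Allo_H skin, and the part of these cells in the Ackr1 values was not tested. Of the 7 chemokine genes 1 fell, the neutrophil attractant Cxcl2 (-4.88 ± 1.40, adjusted p = 0.0353). Cxcl2 averaged 0.265 ± 0.357 CPM in Nin and 7.83 ± 14.7 CPM in Allo_H skin (SD), so the Allo_H libraries were spread very widely. The chemokine list had a summed level of 36.6 to 173 CPM in Nin and 144 to 281 CPM in Allo_H skin. The general endothelial genes were spread widely over the Nin libraries: Cdh5 had 17.4, 95.5, 23.4, 28.8 and 38.7 CPM in Nin skin, against 60.5, 39.2, 68.5 and 40.1 CPM in Allo_H skin, and its fold change was -0.35 ± 0.39. Pecam1 was at -0.42 ± 0.30 and Vwf at 0.02 ± 0.29. Lyve1 had 16.4, 46.7, 20.9, 36.4 and 29.4 CPM in Nin skin, against 70.0, 76.7, 42.5 and 29.0 CPM in Allo_H skin (-0.86 ± 0.35, adjusted p = 0.122). None of the 27 endothelial and 11 lymphatic genes was called, and of the arterial and capillary genes Efnb2 rose (0.77 ± 0.21, adjusted p = 0.0283). Of 23 activation genes 3 fell, Tnfrsf1a (-0.57 ± 0.12, adjusted p = 0.00870), the lymphotoxin receptor Ltbr (-0.32 ± 0.09, adjusted p = 0.0411) and Bst2 (-1.17 ± 0.36, adjusted p = 0.0494). Of 16 junction genes 2 rose, Ocln and Marveld2, both tight junction genes also expressed by epithelia, and 1 fell, the integrin gene Itga6.

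The 2 treatments were set against each other as the difference between their effects, each taken against the allogeneic control of its own run. For Ackr1 the difference was 1.54 ± 0.29 in log2 units (adjusted p = 0.119) and for Sele 2.18 ± 0.53 (adjusted p = 0.159). With edgeR none of the 10 genes was called, and neither was any of the 20462 genes (0%). An unadjusted p under 0.05 was found for 5 of the 10 and 12.2% of all genes, and DESeq2 called 2 of the 10, Ackr1 (adjusted p = 0.000661) and Sele (adjusted p = 0.0115), and 1.85% of all genes. Without Nin replicate 2, the highest of its group for Ackr1, edgeR called the Ackr1 difference (adjusted p = 0.0194) and 7 genes in all. For Vcam1 (0.66 ± 0.71) and Icam1 (0.68 ± 0.50) the differences were smaller against their SE and were not called by either tool. Counting run and treatment separate the same libraries, so what belongs to the run cannot be told apart from what belongs to the controls.

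By the fixed rule, the genes closest to each called gene over the 12 libraries of the first run were found from centred and SD-scaled log2 CPM, among 14677 genes. Closest to Ackr1 were Efemp1 and Ecm2, both matrix protein genes, with mean absolute differences of 0.176 and 0.178 SD. Efemp1 averaged 133 ± 31.3 CPM in mCAN10, 36.4 ± 8.96 in Allo and 91.7 ± 12.8 in Syn skin, and Ecm2 averaged 38.5 ± 7.26 CPM in mCAN10, 9.09 ± 2.17 in Allo and 34.2 ± 8.24 in Syn skin (SD, n = 4 each). Closest to Vcam1 were the cytokine receptor Il21r (0.132) and the lipid phosphatase Lpin2 (0.153), and closest to Icam1 the apoptosis protease Casp8 (0.132) and Il2rg (0.135), the shared gamma chain of cytokine receptors. Sele had no neighbour as close, with Rnase6 at 0.327 and Zfp935 at 0.347.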

How the data were processed

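Whole-number read counts per gene symbol were deposited by the authors and, per the submitters' processing notes, were made with FastQC, Trimmomatic, STAR and featureCounts on GRCm39; no version, setting or annotation is given in the sources used here. Per the labels' protocols, 1 μg of RNA from skin pieces 3 mm wide went into poly-A libraries that do not record strand. Of 64050 symbols, 21830 had counts in both counting runs, 12094 in the first alone and 6185 in the second alone, and no column was left out.

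Tests used edgeR 4.0.16 under R 4.3.3: filterByExpr at a minimum count of 10 kept 20462 genes, libraries were scaled with TMM, and all 21 libraries entered a quasi-likelihood fit (glmQLFit, glmQLFTest) with 5 group means. A gene is called where its Benjamini-Hochberg adjusted p over all genes tested is under 0.05. Genes without counts in the second run are among those tested. Shares over all genes in comparisons with Nin or Allo_H therefore include genes that could not be called. Shares in the first run may likewise include some of the 6185 symbols with counts in the second run alone. An SE is the log2 fold change divided by the square root of F. Log2 CPM used a prior count of 2. P-values set a difference between groups against the spread between samples, which may be technical. No pair of libraries within a group was near-identical (chi-square per gene at least 16.8 over 34 pairs).

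The 10 genes and the lists of other genes were chosen with earlier results of these data known. The hair and Y-linked lists, and the settings that leave out the 2 hair-rich libraries or use hair or macrophage content as a covariate, were chosen after seeing the data. Named genes are the 10 genes in every comparison, up to 3 called genes with the lowest p of each list, and for each called gene the 2 with the nearest profile at 1 CPM or more; overlapping neighbours and Prox1 were named after their values were seen. The text does not print every gene that this rule names, and a gene and a promoter motif are not reported here. On simulated counts, of 100 genes changed 4-fold 73 were recovered for Allo against Syn (18937 genes), 72 for mCAN10 against Allo (19013 genes), 78 for mCAN10 against Syn (18982 genes) and 80 for Nin against Allo_H (16790 genes); of 100 changed 2-fold 37, 43, 39 and 38 were recovered, with 3, 3, 8 and 7 false calls. In the simulation no other gene changed and all other groups shared a baseline, unlike in the data, so these recoveries need not hold there. Alternatives were RLE size factors, no filter, DESeq2 1.42.0, fits of 1 run or of the groups compared, a replicate block, shared symbols, covariates, the lane note and leaving out each library. Figures use matplotlib 3.10.9 (Python 3.11.15).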

Additional observations from a re-analysis of the deposited data

Results flagged for a closer look

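Of 50 sets of values (10 genes in 5 groups), 4 held a library far from the others of its group, where chance gives about 1 in 20. Selp was lowest in mCAN10 replicate 3, at 7.17 CPM, with the other 3 libraries at 9.43 CPM or more. Selp was also lowest in Allo replicate 4, at 2.94 CPM, with the others at 7.88 CPM or more. Cdh5 was highest in Nin replicate 2, at 95.5 CPM, with the next library at 38.7 CPM. Plvap was highest in Syn replicate 1, at 126 CPM, with the next library at 107 CPM. None of these sets belongs to a comparison in which that gene was called by edgeR's fit over all libraries.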

How the results depend on the processing

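The calls of Ackr1 held under each of 10 other settings and whichever library was left out, at -1.37 to -1.18 in Allo against Syn and 1.53 to 1.76 in mCAN10 against Allo. Of the 10 genes, those called numbered 3 to 4 between Allo and Syn and 1 between mCAN10 and Allo under every setting, and 3 and 1 with any library left out. Over all genes, the settings called 3455 to 6538 between Allo and Syn and 1570 to 3664 between mCAN10 and Allo. Leaving out each library gave 3580 to 4953 and 1284 to 2168 of all genes, against 4621 and 2204 with every library. The causes of the changes below were not tested.

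For Nin against Allo_H (2 called), 0 were called with the 9 libraries of the run or the groups compared alone and among libraries with or without the lane note. A single gene was called (1) with no filter, with endothelial, hair or macrophage content or the lane note as a term, and without the 2 hair-rich libraries, and 5 with DESeq2. Leaving out each library gave 1 to 5, the 5 without Nin replicate 5. For mCAN10 against Syn (0 called), 1 was called with DESeq2 or the run alone, 4 with the groups compared alone and 0 with any library left out. For the difference between treatments (0 called), DESeq2 called 2, and leaving out each library gave 0 to 1.

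Deviations of samples with the same replicate number in their titles had correlations from -0.23 to 0.35, with 3 of 16 over 0.1. The authors' column names number the mCAN10 samples after the first differently, so for that group this check does not cover the authors' own numbering. Whether samples are paired is therefore not settled. A replicate block by the title numbers over the groups compared gave 2 calls in mCAN10 against Syn (695 genes in all). It gave 0 in Nin against Allo_H (33 genes in all) and changed no call of Ackr1.

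Some log2 fold changes turned sign, none of them called over all 21 libraries; 2 of them were Vcam1 (0.66) and Cdh5 (0.65) in the difference between treatments. In Nin against Allo_H, Vwf was -0.013 with no filter, -0.014 with shared symbols, -0.32 with the block, -0.54 without the lane note and -0.055 with it as a term, Cdh5 was 0.093 with the lane note and 0.021 without the hair-rich libraries, and Ackr1 was -0.44 without the lane note. With endothelial content, Pecam1 was 0.20 and Plvap 0.16 in Allo against Syn, Pecam1 was -0.15 and Cdh5 -0.27 in mCAN10 against Allo, and Cdh5 was -0.24 in the difference between treatments. With muscle content, Pecam1 was 0.023 in Allo against Syn and Selp -0.019 in mCAN10 against Syn. With macrophage content, Selp was -0.21, Pecam1 -0.093 and Vwf -0.077 in mCAN10 against Syn, and Vcam1 -0.26 in the difference between treatments. Leaving out each library gave Plvap -0.18 to 0.087 in Allo against Syn, Selp -0.091 to 0.15 and Pecam1 -0.045 to 0.23 in mCAN10 against Syn, and Vwf -0.18 to 0.16 and Ackr1 -0.013 to 0.25 in Nin against Allo_H.

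Over all genes, edgeR called 1906 in Nin against Allo_H, 94 with that run alone, 33 with the block, 0 in either lane subset, 1190 with no filter, 1144 with macrophage content, 1225 without the hair-rich libraries, 782 to 2794 with a library left out, and DESeq2 3058. In mCAN10 against Syn the calls were 166, 505 with the run alone, 2131 with the groups compared, 695 with the block, 106 with shared symbols, 108 with muscle and 93 with macrophage content, 31 to 152 with a library left out, and 674 with DESeq2. In mCAN10 against Allo they were 2204, 3664 with the run alone and 1284 to 2168 with a library left out, and in the difference between treatments 0, 363 with DESeq2, 4 without the hair-rich libraries, 1 with hair content and 0 to 7 with a library left out.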
